A study of Mus musculus with 6 samples.

Results

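The 7 genes described here carry out de novo fatty acid synthesis: Slc25a1, Acly, Acss2, Acaca, Fasn, Olah and Thrsp. They were taken by name, for their role in citrate export, acetyl-CoA supply, chain synthesis and the release of medium chains, and all 7 were found among the 17739 gene symbols of the deposited table. RNA came from mammary epithelial organoids, the fragments of epithelium left after enzymatic digestion of the gland, of FVB mice on the first day of lactation. Wild-type mice (genotype Wild Type, 3 mice) were compared with conditional Nmi knockout mice (genotype Nmi-/-, 3 mice), with 1 library per mouse. Nmi encodes an interferon-inducible partner of Myc and STAT proteins, and the study asked how its loss relates to excess proliferation of the gland. Each library drew on glands of the second and the third pair. Which promoter drives the recombinase, in which cells it acts and which exons it removes is not given in the sources used here.

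In the lactating gland, the secretory epithelium builds fatty acids from glucose carbon. Citrate leaves the mitochondrion, is split into acetyl-CoA in the cytosol, is carboxylated to malonyl-CoA and is then joined into chains by fatty acid synthase. In most tissues the chain is released as palmitate, whereas the rodent mammary gland also has a separate thioesterase that releases it early, which gives milk fat its medium-chain fatty acids. Transcription of this pathway is known to be driven by SREBP-1 and to be switched on in the mammary gland when lactation starts.

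The values are FPKM, fragment numbers divided by gene length and by the mapped total of the library. Comparisons between genes assume that each estimate is sound, which this table does not always meet. The housekeeping gene Gapdh, named here as a check, was listed at 0.0769 FPKM or less in every library. Values listed for a genotype are those of replicates 1, 2 and 3, in that order. A list of 18 milk protein genes made up 49.0%, 62.2% and 71.7% of all FPKM in the wild-type libraries and 68.2%, 64.4% and 77.6% in the knockout libraries. FPKM sums ran from 379478 to 509453, and the number of reads behind them is unknown. Wild-type replicate 1 and knockout replicate 3 stood at the opposite ends of the milk share, and the main results on the 7 genes are given with and without them. Nmi was listed at 4.595, 2.82 and 2.32 FPKM in the wild-type libraries and at 0.188, 0.547 and 0.564 FPKM in the knockout libraries, so its groups did not overlap. Its log2 fold change was -1.54 (SE 0.23), with an unadjusted p of 3.81e-05 and a Benjamini-Hochberg adjusted p of 0.372 in limma. Milk genes of the luminal epithelium were abundant, with Csn2 (beta-casein) at 54112 FPKM or more and Wap (whey acidic protein) at 23414 FPKM or more in every library. The luminal keratins and Epcam, also epithelial, ran the other way at the end libraries. Krt8 had 1515 FPKM in wild-type replicate 1 and 198 FPKM in knockout replicate 3, and Krt18 1627 and 210 FPKM. Krt19 had 1053 and 181 FPKM, and Epcam 578 and 190 FPKM. Of the same luminal list, Elf5 was higher in knockout replicate 3 (173 and 207 FPKM), as was Lalba (1921 and 2527 FPKM). These 4 genes, Elf5 and Lalba were named after their values were seen. Of all genes tested, 63.5% were highest in wild-type replicate 1 and 65.8% lowest in knockout replicate 3. The part of these luminal genes in the results below was not tested. Labels and headers name no batch. In such bulk samples, fewer cells of a type and less RNA per cell cannot be told apart.

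Of the 7 genes, 3 lie on chromosome 11 of GRCm38: Acaca at 84129672 to 84401651 on the plus strand, Acly at 100476353 to 100528000 on the minus strand and Fasn at 120805846 to 120824547 on the minus strand. Chromosome 2 holds Olah, at 3341982 to 3397210 on the minus strand, and Acss2, at 155517948 to 155585724 on the plus strand. Slc25a1 lies on chromosome 16 at 17925223 to 17928219 and Thrsp on chromosome 7 at 97412938 to 97417730, both on the minus strand. Exons of Acss2 overlap those of Acss2os (335 bases), Gss (395 bases) and Ggt7 (197 bases) on the opposite strand, and the strand setting of the authors' counting is not given in the sources used here. The longest Acaca transcript is matched over 64.3% of its length, at 95% identity or more, by the predicted gene Gm5182. The values of Acaca and Acss2 are therefore uncertain to the extent that reads were shared. The other 5 genes overlapped no exon of another gene and had no such copy.

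The sequences just upstream of 3 of these genes are shown because the genes spanned the range of behaviour described below: Fasn varied most over the 6 libraries, Slc25a1 ordered them identically and Olah varied least. All are RefSeq windows on GRCm38.p6, printed 5′ to 3′ on the strand of the gene, and hold no exon annotated by GENCODE. Capitals mark CCAAT or its complement ATTGG, the box read by NF-Y, and GGGCGG or its complement CCGCCC, the box read by Sp1. The Fasn window is chr11:120824548-120824797, that of Slc25a1 is chr16:17928220-17928469 and that of Olah is chr2:3366601-3366819, all on the minus strand.
Fasn: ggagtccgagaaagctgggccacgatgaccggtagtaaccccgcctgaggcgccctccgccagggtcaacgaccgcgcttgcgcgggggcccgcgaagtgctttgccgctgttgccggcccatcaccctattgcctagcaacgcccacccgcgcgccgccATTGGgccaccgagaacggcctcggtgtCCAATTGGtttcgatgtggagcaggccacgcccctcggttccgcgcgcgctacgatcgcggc
Slc25a1: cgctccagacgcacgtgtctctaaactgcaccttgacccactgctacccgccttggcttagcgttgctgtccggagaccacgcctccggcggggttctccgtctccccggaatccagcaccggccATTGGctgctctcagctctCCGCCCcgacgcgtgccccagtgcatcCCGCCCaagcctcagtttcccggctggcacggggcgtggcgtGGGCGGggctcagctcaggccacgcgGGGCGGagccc
Olah: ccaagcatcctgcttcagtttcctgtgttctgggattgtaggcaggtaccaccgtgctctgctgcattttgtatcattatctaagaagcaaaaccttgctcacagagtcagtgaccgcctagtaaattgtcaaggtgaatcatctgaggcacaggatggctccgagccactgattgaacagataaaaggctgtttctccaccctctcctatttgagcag
The Fasn window holds 3 CCAAT boxes, of which 2 overlap in CCAATTGG. Slc25a1 has 1 CCAAT box and 4 GC boxes, and the Olah window has neither. Over the 250 bases upstream of each RefSeq start, and counting both strands, 4 of the 7 genes had CCAAT (3 in Fasn, 2 in Thrsp, 1 each in Slc25a1 and Acss2), against 33.8% of all 32851 windows. GGGCGG was found in 3 of the 7 (Slc25a1, Acly and Acss2, with 4 each), against 32.7% of all windows. The E-box CACGTG was found in 1 (Slc25a1), against 6.02% of windows. The sterol element TCACNCCAC and the STAT site TTCNNNGAA were found in 0 of the 7, against 1.05% and 7.02% of windows. For Acaca and Olah the RefSeq window lies inside the span that GENCODE gives the gene, downstream of other annotated starts. For Thrsp 180 and for Acss2 95 of the 250 bases lie in exons that GENCODE annotates, and these hold both Thrsp CCAAT boxes and that of Acss2. These matches are descriptions of letters, not of bound sites.

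Citrate export is the task of Slc25a1, the mitochondrial citrate carrier. The wild-type libraries had 27.5, 35.1 and 93.7 FPKM and the knockout libraries 52.8, 32.0 and 261 FPKM. Knockout replicate 3 stood far above the other 5 libraries, and the groups overlapped. The wild-type mean was 52.1 ± 36.2 FPKM and the knockout mean 115 ± 126 FPKM (SD, n = 3 each). This gave a log2 fold change of 0.75 (SE 0.68, 95% confidence interval -0.74 to 2.24).

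Acly splits the exported citrate into acetyl-CoA and oxaloacetate. It was measured at 35.1, 61.1 and 95.4 FPKM in the wild-type libraries and at 112, 50.7 and 263 FPKM in the knockout libraries. Knockout replicate 2 lay below wild-type replicate 2, so the groups overlapped here too. Mean levels were 63.9 ± 30.2 FPKM and 142 ± 109 FPKM (SD over the 3 mice of each genotype), with a log2 fold change of 0.94 (SE 0.54, 95% confidence interval -0.25 to 2.14). Acss2, which makes acetyl-CoA from acetate, was the least abundant of the 7 genes in each of the 6 libraries. Its values were 3.22, 3.30 and 5.81 FPKM among wild types and 6.81, 2.34 and 15.0 FPKM among knockouts. The lowest value of Acss2 was in knockout replicate 2, whereas the other 6 genes were lowest in wild-type replicate 1. Mean levels were 4.11 ± 1.47 FPKM and 8.06 ± 6.43 FPKM (SD over the 3 mice of each genotype), with a log2 fold change of 0.59 (SE 0.46, 95% confidence interval -0.43 to 1.61).

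Acaca encodes acetyl-CoA carboxylase 1, which makes malonyl-CoA and is the committed step of the pathway. Wild-type libraries had 3.62, 9.90 and 17.7 FPKM and knockout libraries 17.1, 7.87 and 41.4 FPKM. Knockout replicate 2 lay below wild-type replicate 2, and the groups overlapped. Acaca had rank 6 of the 7 genes in every library, above Acss2. Wild-type and knockout means were 10.4 ± 7.06 FPKM and 22.1 ± 17.3 FPKM (SD over the 3 mice of each genotype), with a log2 fold change of 0.95 (SE 0.57, 95% confidence interval -0.31 to 2.21).

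Fasn, the multifunctional synthase that elongates the chain by successive condensations, had the widest span of the 7. Its FPKM was 17.6, 28.6 and 109 in the wild-type libraries and 48.6, 26.0 and 363 in the knockout libraries. Within the wild type alone, replicate 3 held 6.16 times the level of replicate 1, and within the knockout replicate 3 held 13.95 times the level of replicate 2. Against spreads of that size the genotype means, 51.6 ± 49.7 FPKM and 146 ± 188 FPKM (SD, 3 mice each), gave a log2 fold change of 1.00 (SE 0.86, 95% confidence interval -0.89 to 2.89).

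Olah encodes the medium-chain thioesterase that ends synthesis early. The wild-type libraries had 67.9, 111 and 116 FPKM and the knockout libraries 105, 92.8 and 156 FPKM. These values lay within 2.30 times of each other, the narrowest span of the 7 genes. Means were 98.2 ± 26.3 FPKM and 118 ± 33.7 FPKM (SD over the 3 mice of each genotype), with a log2 fold change of 0.27 (SE 0.33, 95% confidence interval -0.46 to 0.99). Thrsp (Spot 14) encodes a small nuclear and cytosolic protein that favours de novo synthesis in the lactating gland. It was listed at 25.8, 68.6 and 123 FPKM for wild types and at 151, 31.0 and 378 FPKM for knockouts. Knockout replicates 1 and 3 exceeded every wild-type library, but replicate 2 lay near the lowest. Mean levels were 72.4 ± 48.5 FPKM and 187 ± 177 FPKM (SD over the 3 mice of each genotype), with a log2 fold change of 1.00 (SE 0.78, 95% confidence interval -0.72 to 2.72).

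**Figure D1:**
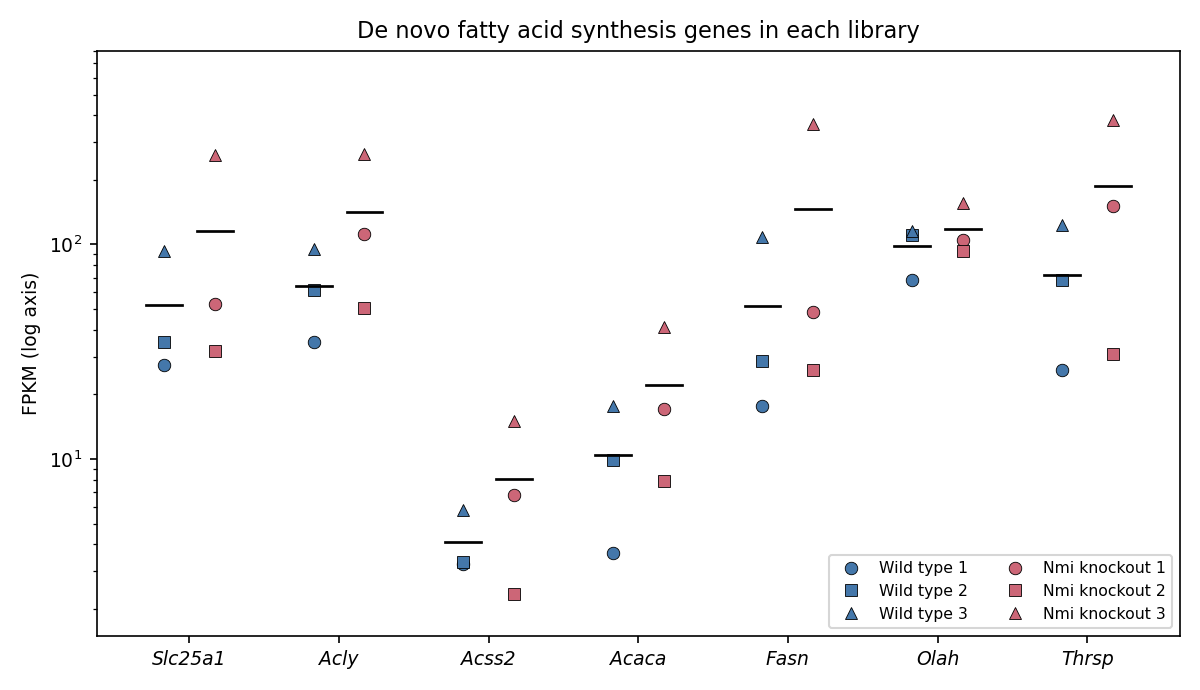
FPKM on a log axis for the 7 genes, with 1 point per library (blue wild type, red Nmi knockout, symbol by replicate) and a black bar at each group mean. The groups overlap for every gene, knockout replicate 3 is the highest point for all 7, and Olah spans the narrowest range, from 67.9 to 156 FPKM.

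None of the 7 genes passed the test between genotypes. In limma fitted over all 9767 genes with at least 1 FPKM in at least 3 libraries, with Benjamini-Hochberg adjustment, the adjusted p was 0.768 for 6 of them and 0.774 for Olah. The number called at an adjusted p under 0.05 was 0 of 7, where 0% of all genes tested were called. At an unadjusted p under 0.05 it was also 0 of 7, against 1.33% of all genes (0.184% higher and 1.15% lower in the knockout), and the smallest unadjusted p was 0.109, of Acly. This count depended on the libraries used and on their weights. Without knockout replicate 2 it was 6 of 7 (12.2% of all genes), all but Olah, with a lowest adjusted p of 0.403 in limma. Without wild-type replicate 3 it was 3 of 7 (Acly, Acaca and Fasn, against 6.47% of all genes). The lowest adjusted p was then 0.508 in limma. Library quality weights estimated gene by gene, added after the data were seen, gave 2 of 7 (Acly and Acss2, against 11.7% of all genes). With them the lowest adjusted p was 0.419 in limma. Non-overlapping groups were found for 0 of 7, against 4.61% of all genes. In exact permutation tests over the 6 libraries (two-sided), the p of each gene ran from 0.4 to 0.6, where 0.1 is the smallest this design allows. All 7 fold changes were positive, with a median of 0.94 on the log2 scale, beside a median of -0.21 and 18.3% positive among all genes tested. Under 3 other scalings of the libraries the median of all genes lay between -0.04 and -0.02, and all 7 genes were positive under each. The intervals of all 7 span 0, and those of Slc25a1, Acly, Acaca, Fasn and Thrsp also hold a log2 fold change of 2.

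The size of the difference depended on single libraries in both directions. The median log2 fold change of the 7 was 1.498 without knockout replicate 2 and 1.29 without wild-type replicate 3, against 0.94 with all libraries. Without knockout replicate 3, the log2 fold changes were -0.13 for Slc25a1, 0.35 for Acly, 0.04 for Acss2, 0.37 for Acaca, -0.10 for Fasn, 0.05 for Olah and 0.18 for Thrsp, with a median of 0.05. The knockout mean of Fasn was then 37.3 FPKM, under the wild-type mean of 51.6 FPKM. Without wild-type replicate 1 the 7 values lay between 0.02 (Olah) and 0.58 (Acly). With both of these libraries left out, a setting chosen after the data were seen, all 7 were negative, from -0.64 (Fasn) to -0.02 (Acly). With the share of milk protein transcripts as a covariate, 5 of the 7 were negative (Slc25a1, Acaca, Fasn, Olah and Thrsp), and the median was -0.10. Knockout replicate 3 had the highest milk share (77.6%) and wild-type replicate 1 the lowest (49.0%), and the part of milk share in these values was not tested.

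**Figure D2:**
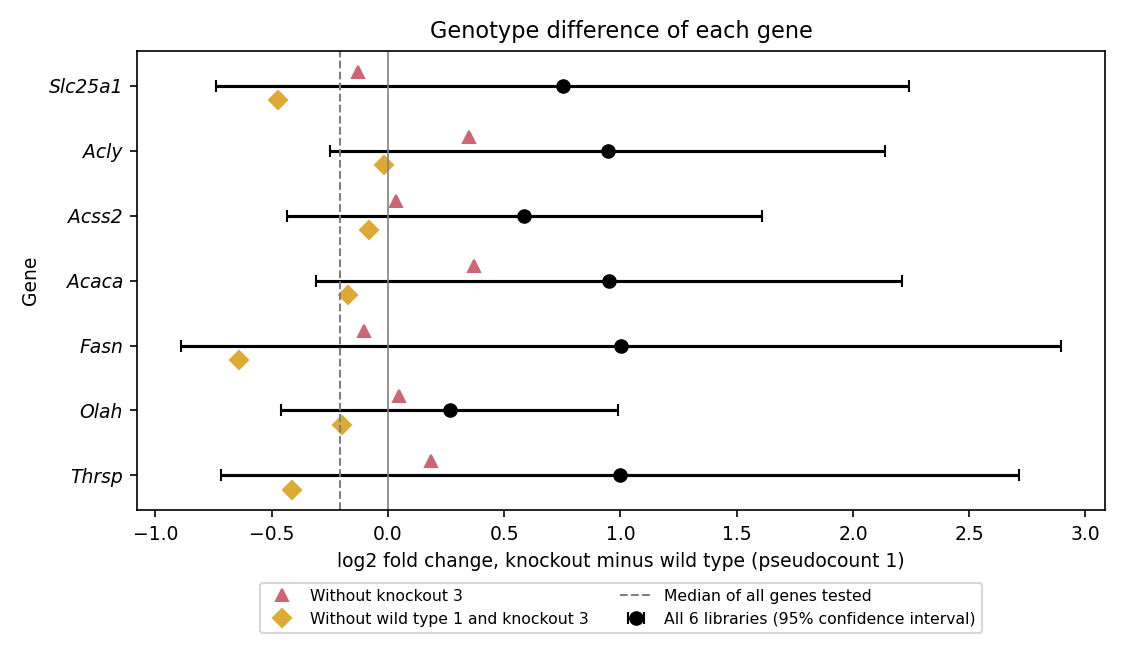
Log2 fold change of each gene, knockout minus wild type, on the log2(FPKM + 1) scale. Black points with bars are the estimate and 95% confidence interval from all 6 libraries, red triangles leave out knockout replicate 3, yellow diamonds leave out wild-type replicate 1 as well, and the dashed line is the median of all genes (-0.21). Each interval spans 0, and all 7 diamonds lie below 0.

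Most of these genes varied widely between mice of the same genotype. On the log2(FPKM + 1) scale, Fasn spanned 4.29 from its lowest to its highest library, the third widest range among the 9767 genes tested. Thrsp ranked 7 (a range of 3.82), Slc25a1 33 (3.20), Acaca 34 (3.20), Acly 61 (2.87) and Acss2 220 (2.26). Olah, with a range of 1.19, ranked 2382. The median gene had a range of 0.84, and 99% of genes stayed below 2.65. Within genotypes, the pooled SD of Fasn was 1.67 on this scale, rank 2 among all genes, and that of Thrsp 1.499 (rank 7), against 0.30 for the median gene. The share of variance between the genotype means was 11.4% (Slc25a1) to 26.2% (Acly) for the 7 genes, beside 19.0% for the median gene. Such a share is positive even without a genotype difference, and it was not corrected for that. Except for Acss2, whose lowest library was knockout replicate 2, these ranges are the distance from wild-type replicate 1 to knockout replicate 3. Over the other 4 libraries, Fasn ran from 26.0 to 109 FPKM (a log2 range of 2.02, rank 28) and Thrsp from 31.0 to 151 FPKM (2.25, rank 17). Slc25a1 then had rank 107, Acss2 247, Acly 321, Acaca 389 and Olah 6364, the last with a range of 0.32 against 0.39 for the median gene. The pooled SD within genotypes had rank 33 for Fasn and 13 for Thrsp over these 4 libraries.

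The libraries were ordered alike by most of these genes. Slc25a1, Acaca and Fasn gave an identical order from low to high: wild-type 1, knockout 2, wild-type 2, knockout 1, wild-type 3 and knockout 3. Acly and Thrsp differed from it in that knockout 1 stood above wild-type 3. All 7 genes were highest in knockout replicate 3, whereas 7.74% of all genes tested were, and 6 of the 7 were lowest in wild-type replicate 1, against 6.30% of all genes. The milk protein list shared this, with 12 of 18 genes highest in knockout replicate 3 (66.7%) and 16 of 18 lowest in wild-type replicate 1 (88.9%). The summed FPKM of the 7 genes was 181, 317 and 560 in the wild-type libraries and 493, 243 and 1478 in the knockout libraries. Rescaling the libraries to their FPKM sum outside the milk protein list widened these spans, to 34.9 times for Fasn (20.6 times as deposited) and to 3.90 times for Olah (2.30 times as deposited). The median gene moved the other way, from 0.33 above its own mean in wild-type replicate 1 to 0.36 below it in knockout replicate 3 (log2 scale, as deposited).

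**Figure D3:**
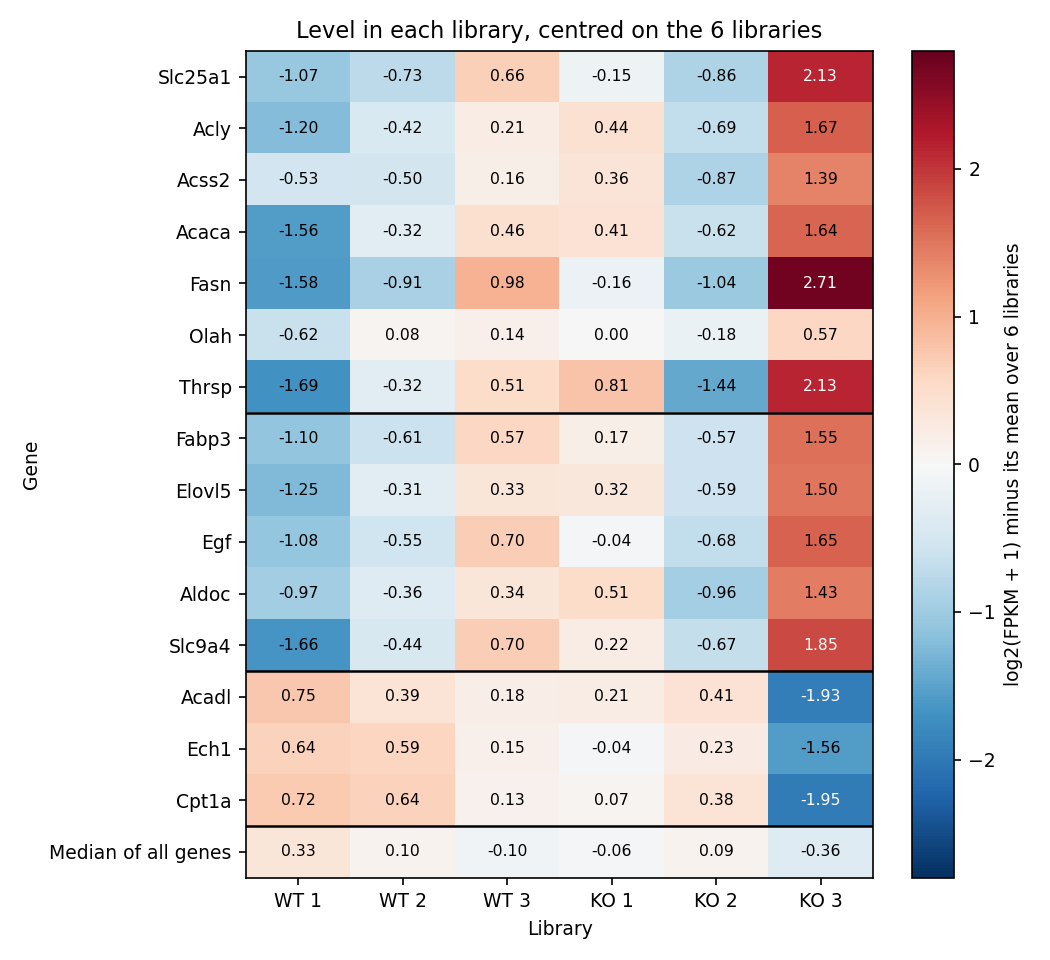
Level of each gene in each library as log2(FPKM + 1) minus its mean over the 6 libraries (red above, blue below, value printed in each cell). From top to bottom are the 7 de novo synthesis genes, the 5 genes chosen for the most similar profile and 3 fatty acid oxidation genes. The last row is the median of all genes. The first 2 blocks are highest in knockout 3, which for the second block follows from its choice. The oxidation genes are lowest there.

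The genes with the profile nearest to the mean profile of the 7, by root-mean-square difference of centred log2(FPKM + 1) over the 6 libraries, were Fabp3 (0.16), Elovl5 (0.16), Egf (0.18), Aldoc (0.21) and Slc9a4 (0.23). Fabp3 encodes a fatty acid binding protein and Elovl5 a fatty acid elongase. Fabp3 had 174, 245 and 556 FPKM in wild type against 420, 251 and 1097 FPKM in the knockout. Its peak in knockout replicate 3 follows from its choice by that profile. Egf encodes epidermal growth factor, Aldoc a glycolytic aldolase and Slc9a4 a sodium-proton exchanger. Egf and Slc9a4 were low, at 0.552 to 9.25 FPKM and 0.832 to 19.97 FPKM. Measured in the same way, the members themselves lay between 0.14 (Acly) and 0.65 (Olah) from their mean. Of the 7, 5 (Slc25a1, Acss2, Thrsp, Fasn and Olah) were farther from it than these 5 genes were. Because these 5 genes were chosen as the closest of the other genes tested, predicted gene models aside, their small distances are no result about the members. The choice of nearest genes rested on the end libraries: 2 of the 5 (Fabp3 and Elovl5) were among the nearest 5 without knockout replicate 3, 4 without wild-type replicate 1 and 0 without both.

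Olah and Fasn changed places between libraries. In wild-type replicate 1, Olah was the most abundant of the 7 genes and Fasn had rank 5. In knockout replicate 3, Fasn had rank 2 and Olah rank 5. The ratio of Olah to Fasn inside a library does not depend on how libraries are scaled. It was 3.85, 3.87 and 1.07 in the wild-type libraries and 2.16, 3.57 and 0.431 in the knockout libraries, a span of 8.97 times (3.62 times without knockout replicate 3). The ratio was lowest in the libraries with the most Fasn. This largely follows from the spans, since Fasn is the divisor and spanned 20.6 times, while Olah itself spanned 2.30 times. The mean log2 ratio of wild types was 1.33 ± 1.07 and that of knockouts 0.58 ± 1.59 (SD, n = 3 each). That difference of -0.75 gave an exact permutation p of 0.5, adjusted p = 1 over 6 ratios, and it was 0.14 without knockout replicate 3.

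The other 5 ratios spanned between 1.99 and 3.17 times over the 6 libraries. Slc25a1 to Acly, the carrier to the enzyme that uses its product, was 0.783, 0.574 and 0.982 in wild type and 0.473, 0.631 and 0.990 in the knockout. Acaca to Fasn was 0.206, 0.345 and 0.163 in wild type and 0.352, 0.303 and 0.114 in the knockout, lowest in replicate 3 of each genotype. Acss2 stayed between 0.0461 and 0.0916 of the level of Acly. Acly to Fasn ran from 0.726 to 2.30, and Thrsp to Fasn from 1.04 to 3.11. Each ratio overlapped between the genotypes, and the exact permutation p of the 6 ratios ran from 0.5 to 1 (two-sided, adjusted p = 1 for each).

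**Figure D4:**
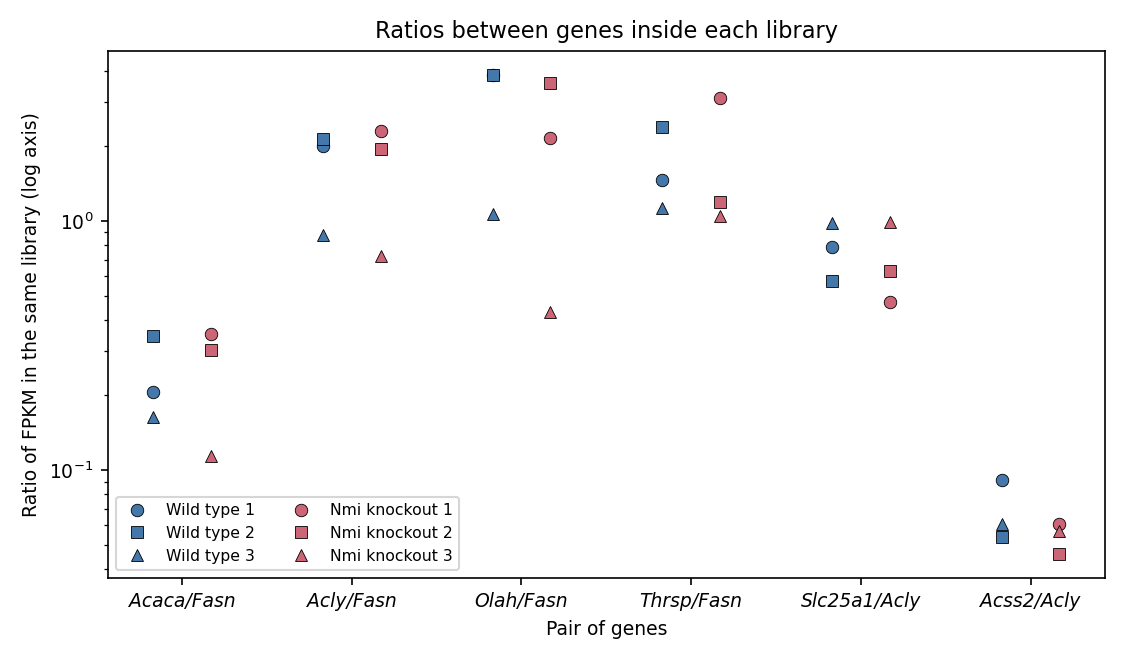
Ratio of the FPKM of 2 genes in the same library on a log axis, for 6 pairs, with 1 point per library (blue wild type, red Nmi knockout, symbol by replicate). Olah/Fasn spans 8.97 times, from 0.431 in knockout replicate 3 to 3.87 in wild-type replicate 2, where the point of wild-type replicate 1 (3.85) lies behind it, and the genotypes overlap for every pair.

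Averaged over the 6 libraries, Thrsp had 130 ± 132 FPKM, Olah 108 ± 29.1 FPKM, Acly 103 ± 83.6 FPKM, Fasn 98.7 ± 133 FPKM and Slc25a1 83.6 ± 90.1 FPKM (SD, n = 6). Those 5 genes did not differ from their neighbours in this order beyond their spread. Acaca (16.3 ± 13.4 FPKM) and Acss2 (6.08 ± 4.70 FPKM) followed, and each kept its place in every library.

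Of the genes around the pathway, 0 in any of 8 lists passed the adjusted test and 0 had an unadjusted p under 0.05 in limma. Relative to the median of all genes, the list medians of the log2 fold change were 0.24 for citrate supply, -0.025 for partners of the carboxylase, -0.056 for lipogenic regulators, 0.08 for NADPH supply, 0.42 for other acetyl-CoA enzymes, 0.12 for mitochondrial synthesis, -0.33 for other thioesterases and -0.35 for fatty acid oxidation. Without knockout replicate 3, citrate supply was at 0.048 and other acetyl-CoA enzymes at 0.0046. Each kept its sign under the 3 other scalings, whereas medians given without this subtraction depend on the scaling. Lipogenic regulators (15 of 17 tested) had a median log2 fold change of -0.26. Of these, 5 were positive and 10 negative (33.3% positive, against 18.3% of all genes tested). Insig1, a sterol-regulated gatekeeper of SREBP activation and itself an SREBP target, had 11.3, 26.9 and 53.8 FPKM in wild type against 30.1, 29.8 and 121 FPKM in the knockout. Usf1, a factor that binds E-boxes of lipogenic promoters, had 12.5, 7.38 and 6.401 FPKM in wild type against 6.72, 6.11 and 3.51 FPKM in the knockout, the reverse order at both ends. Among all genes tested, 63.5% were highest in wild-type replicate 1 and 65.8% were lowest in knockout replicate 3. Akt1, a kinase of insulin signalling, was nearly level at 53.8 to 65.6 FPKM. Named here after its values were seen, Srebf1, which encodes SREBP-1, had 16.2, 22.9 and 30.9 FPKM in wild type against 27.3, 17.1 and 65.9 FPKM in the knockout, again highest in knockout replicate 3.

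The partners of the carboxylase and the synthase (14 of 15 tested) had a median of -0.23. Of these, 4 were positive and 10 negative (28.6% positive, against 18.3% of all genes tested). Prkaa1 encodes a catalytic subunit of AMP-activated kinase, which phosphorylates and inhibits acetyl-CoA carboxylase. Prkaa1 was listed at 6.46, 4.07 and 2.71 FPKM in wild type against 2.52, 3.60 and 0.867 FPKM in the knockout. Its log2 fold change was -0.74 (SE 0.35, unadjusted p = 0.0583, limma adjusted p = 0.768). Prkaa2, another catalytic subunit of that kinase, is named here after its values were seen. It had 4.11, 5.22 and 5.71 FPKM in wild type against 4.35, 4.48 and 11.04 FPKM in the knockout. Its log2 fold change was 0.24 (SE 0.32), and it was highest in knockout replicate 3, where Prkaa1 was lowest, as were 65.8% of all genes tested. Prkab1, a regulatory subunit of that kinase, had 23.9 to 40.7 FPKM in wild type against 17.9 to 26.2 FPKM in the knockout. Mid1ip1, a relative of Thrsp that promotes polymerization of the carboxylase, had 11.02, 6.15 and 5.15 FPKM and 4.54, 4.86 and 5.44 FPKM, and so did not share the peak of Thrsp in knockout replicate 3. Dbi, the acyl-CoA binding protein, had 172 to 270 FPKM over the 6 libraries. Acacb, the second carboxylase and a gene outside the naming rule, had 1.27, 6.01 and 7.85 FPKM in wild type against 7.48, 2.42 and 21.7 FPKM in the knockout.

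Upstream of citrate, 14 of 16 listed genes were tested, with a median of 0.03. Of these, 8 were positive and 6 negative (57.1% positive, against 18.3% of all genes tested). Cs, citrate synthase, stayed between 60.03 and 78.4 FPKM in the 6 libraries. Its transcript thus varied little where that of the citrate carrier Slc25a1 varied 9.47 times, and protein was not measured here. Pdk4, a kinase that shuts off pyruvate dehydrogenase, had 35.2, 136 and 64.3 FPKM in wild type against 64.4, 86.3 and 18.9 FPKM in the knockout. Pdk1, of the same kinase family, had 4.49 to 5.57 FPKM in wild type against 6.05 to 7.64 FPKM in the knockout, and its groups did not overlap (0.778% of all genes were higher in the knockout without overlap). Its log2 fold change was 0.36 (SE 0.22, unadjusted p = 0.134, limma adjusted p = 0.768). Pdp1, a phosphatase that opposes these kinases, had 2.34 to 3.74 FPKM and 1.33 to 2.95 FPKM.

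NADPH supply (8 of 9 tested) had a median of -0.13, with 3 positive and 5 negative (37.5% positive, against 18.3% of all genes tested). Tkt, transketolase, had 129 to 135 FPKM in wild type against 117 to 216 FPKM in the knockout, and Me1, malic enzyme, 58.2 to 64.2 FPKM and 62.2 to 105 FPKM, both with the highest value in knockout replicate 3. Pgd, of the pentose phosphate pathway, had 81.2 to 134 FPKM and 71.4 to 92.9 FPKM. Idh1, cytosolic isocitrate dehydrogenase, was highest in wild-type replicate 1 (12.2 FPKM) and lowest in knockout replicate 3 (1.71 FPKM). These were the highest library for 63.5% and the lowest for 65.8% of all genes tested. Other enzymes of acetyl-CoA (6 of 9 tested) had a median of 0.21, with 4 positive and 2 negative (66.7% positive). Acat2, the cytosolic thiolase of sterol synthesis, had 2.39, 2.87 and 5.62 FPKM in wild type against 7.495, 2.35 and 16.5 FPKM in the knockout. Acss1, the mitochondrial relative of Acss2, had 6.15 to 14.3 FPKM and 10.7 to 18.5 FPKM, and Mdh1, cytosolic malate dehydrogenase, 32.3 to 43.1 FPKM and 23.5 to 67.1 FPKM. The separate mitochondrial pathway of fatty acid synthesis (7 of 9 tested) had a median of -0.09, with 2 positive and 5 negative (28.6% positive). In FPKM its median gene spanned 1.59 times from lowest to highest library, against 9.47 times for the median of the 7 genes. At these low levels Lipt2 (2.89 times) and Cbr4 (2.50 times), both named after their values were seen, and Lipt1 (2.45 times) spanned more than Olah (2.30 times). Mecr, its reductase, had 5.44 to 7.90 FPKM, and Ndufab1, its acyl carrier protein, had 2.78 to 4.21 FPKM. Its malonyl transferase Mcat (1.91 to 2.45 and 1.54 to 1.59 FPKM) and the lipoyl transferase Lipt1 (1.42 to 2.05 and 0.835 to 1.27 FPKM) did not overlap between genotypes, with limma adjusted p = 0.768 each and 3.83% of all genes lower in the knockout without overlap.

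Fatty acid oxidation, the opposing pathway, differed from the synthesis genes in knockout replicate 3. Of its 14 tested genes, 0 were positive and 14 negative, where 18.3% of all genes tested were positive. The median log2 fold change was -0.56 beside -0.21 for all genes, and 0 passed the test. Cpt1a, which admits fatty acids to the mitochondrion and is inhibited by malonyl-CoA, had 16.3, 15.4 and 10.5 FPKM in wild type against 10.05, 12.7 and 1.72 FPKM in the knockout. Acadl, the long-chain acyl-CoA dehydrogenase, had 87.2, 67.6 and 58.6 FPKM and 59.7, 68.6 and 12.8 FPKM. Ech1, an isomerase, had 67.9, 65.9 and 48.1 FPKM and 42.03, 50.98 and 14.03 FPKM. In these 3 genes knockout replicate 3 stood far below the other 5 libraries. Knockout replicate 3 was the lowest library for 13 of the 14 genes, where it was the lowest for 65.8% of all genes tested. Wild-type replicate 1 was the highest for 10 of the 14 (71.4%), against 63.5% of all genes. The exception in knockout replicate 3 was Eci1, an isomerase chosen here after its values were seen, which stayed between 7.04 and 9.51 FPKM. The list's median relative to all genes was -0.35, and -0.02 without that library.

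The acyl-CoA thioesterases other than Olah (7 of 11 tested) had a median of -0.53, with 0 positive and 7 negative. Acot1 had 46.7, 67.9 and 36.1 FPKM in wild type against 42.3, 45.7 and 7.77 FPKM in the knockout, and Acot2 had 8.205, 7.41 and 3.88 FPKM and 4.26, 5.77 and 1.199 FPKM. Both hydrolyse long-chain acyl-CoA. Knockout replicate 3 was the lowest library for 7 of 7, as it was for 65.8% of all genes, and 18.3% of all genes had a positive fold change. Olah was highest in that library. Acot13 had 13.0 to 14.6 FPKM and 9.16 to 13.96 FPKM, and Acot7 1.25 to 4.225 FPKM and 0.849 to 1.59 FPKM. Their median relative to all genes was -0.33, and -0.06 without knockout replicate 3.

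**Figure D5:**
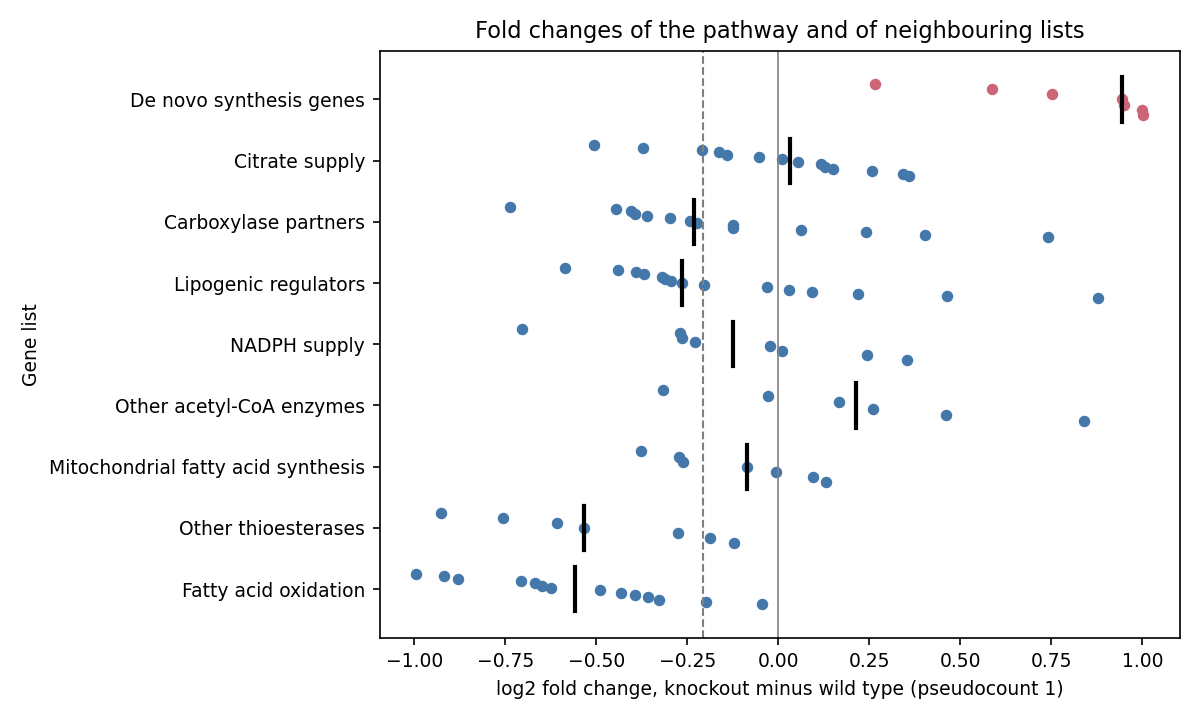
Log2 fold changes, knockout minus wild type, of each tested gene (points) in the 7 de novo synthesis genes (red) and in 8 neighbouring lists (blue), with a black bar at each list's median; the solid line is 0 and the dashed line the median of all genes (-0.21). The synthesis genes lie between 0.27 and 1.00, and the oxidation genes between -0.995 and -0.04.

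Fat cells also use these genes, so their markers were examined beside them. Of 15 adipocyte markers, 14 were in the table and 3 had a mean of at least 1 FPKM. Listed at 0 in at least 1 library were 8 of the 14. Adipoq, Plin1, Cfd and Retn, which define fat cells, were at or near 0 (0.0957 FPKM or less in each library), and Lep was at 0.167 FPKM or less. These markers had means under 1 FPKM and are named outside the naming rule. In this table a listed 0 or a value near 0 can be a failed estimate, since the housekeeping gene Gapdh was itself listed at 0.0769 FPKM or less in all 6 libraries. The 3 markers that were present are also known from other cells of the gland. Fabp4, a marker of capillary endothelium as well, had 672, 498 and 212 FPKM in wild type against 264, 440 and 157 FPKM in the knockout, lowest where Fasn was highest. That library, knockout replicate 3, was the lowest for 65.8% of all genes tested. Cidea, which the lactating epithelium itself uses, had 91.2, 131 and 208 FPKM and 179, 98.4 and 283 FPKM, in the order of libraries that Fasn gave, and Lipe 10.8, 23.3 and 14.54 FPKM and 18.5, 17.7 and 7.99 FPKM. The sum of the list was 435 to 775 FPKM in wild type against 449 to 558 FPKM in the knockout.

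Markers of other cell types that organoids can hold also differed between libraries. Krt14 (basal keratin) was highest in wild-type replicate 1 (149 FPKM) and lowest in knockout replicate 3 (44.6 FPKM). Of all genes tested, 63.5% were highest in wild-type replicate 1 and 65.8% lowest in knockout replicate 3. Acta2 (smooth muscle actin) did not follow this order, with 453, 386 and 222 FPKM in wild type against 138, 724 and 169 FPKM in the knockout. The summed basal list was 375 to 777 FPKM in wild type against 293 to 1063 FPKM in the knockout. Pecam1 and Cdh5 (endothelium) had 33.7 and 35.6 FPKM in wild-type replicate 1 and 14.49 and 19.2 FPKM in knockout replicate 3. Cdh5 was highest in knockout replicate 2, at 38.8 FPKM. The endothelial sum was 42.7 to 91.7 FPKM in wild type against 44.4 to 84.1 FPKM in the knockout. Fibroblast markers (Col3a1 at 7.565 to 22.5 FPKM, Dcn at 7.15 to 12.04 FPKM) summed to 22.7 to 52.1 FPKM in wild type against 32.2 to 59.1 FPKM in the knockout. The immune list, with S100a8 highest at 1.25 to 8.61 FPKM and Csf1r at 0.188 to 0.951 FPKM, summed to 3.49 to 8.58 FPKM and 3.64 to 9.18 FPKM. The part of cell composition in the levels of the 7 genes was not tested.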

How the data were processed

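RNA-seq libraries of mammary epithelial organoids from 6 mice were analysed, 3 wild type and 3 Nmi knockout. The values are FPKM that the authors deposited in 1 table. They used TopHat and Cufflinks, with FastQC and SAMtools, and name mm10 and GRCm38, per the submitters' processing notes. Any version, annotation or strand setting is not given in the sources used here. Each library's total enters FPKM, so abundant milk transcripts lower the other genes. Read numbers are unknown, so no counting interval was computed.

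The 9767 genes that reached 1 FPKM in 3 or more libraries were transformed to log2(FPKM + 1), which understates the change of low genes. They were tested with limma 3.58.1 in R 4.3.3 (intensity trend, two-sided, Benjamini-Hochberg, threshold 0.05). The test was checked on simulated data with independent noise for each gene and library. That check does not cover shifts shared by many genes of a library, which these libraries show. Mice carry separate numbers in the labels, and no pairing was used. Ratios used exact permutation tests. Positions are from GENCODE mouse release 21, copies were sought with BLAST 2.17.0 (95% identity over 50% of the transcript), and upstream sequences are from RefSeq. The members, lists and tests were chosen with earlier results of these data known. Genes named besides the 7 and Nmi are the 2 most abundant and the 2 with the smallest p of each pathway list, the 5 nearest profiles, the 2 most abundant of each marker list and adipocyte markers with a mean of at least 1 FPKM; exceptions are stated. Alternatives covered the pseudocount, filter, scaling, model and libraries used.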

Additional observations from a re-analysis of the deposited data

How the results depend on the processing

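Of 409 values under alternative settings, 348 kept their direction and their side of the threshold or moved by less than the spread, 28 reversed and 33 moved. The spread used for the median of the 7 genes was 1.08, above that median itself (0.94 with all libraries). Its values of -0.10 with the milk covariate and 0.047 without knockout replicate 3 are therefore among the 348. Counts of genes were judged by their ratio to the main count instead. The 7 fold changes stayed positive under both other pseudocounts, both other filters, all 3 scalings and without an intensity trend. Scaling moved the median of all genes from -0.21 to between -0.04 and -0.02. With the milk share as a covariate, the log2 fold changes were -0.23 (Slc25a1), -0.020 (Acaca), -0.35 (Fasn), -0.10 (Olah) and -0.21 (Thrsp), with 2 of 7 positive. Without both wild-type replicate 1 and knockout replicate 3, a setting added after the data were seen, they were -0.47 (Slc25a1), -0.019 (Acly), -0.083 (Acss2), -0.17 (Acaca), -0.64 (Fasn), -0.20 (Olah) and -0.41 (Thrsp), with a median of -0.20 and 0 of 7 positive. That setting called 1 gene, the predicted gene Gm7367, named for this count. Library quality weights estimated gene by gene, added after the data were seen, gave -0.025 for Olah and called 2 genes, Nmi and Cdk5rap1. The default estimate of the weights did not converge, gave weights of 27.6 and 39.2 to 1 library of each genotype and called 7740 genes, and is not used. The cause of these changes was not tested.

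Leaving out 1 library at a time gave -0.13 to 1.37 (Slc25a1), 0.35 to 1.52 (Acly), 0.036 to 1.17 (Acss2), 0.37 to 1.498 (Acaca), -0.10 to 1.77 (Fasn), 0.023 to 0.42 (Olah) and 0.18 to 1.97 (Thrsp), with a median over the 7 of 0.047 to 1.498. The negative values of Slc25a1 and Fasn came without knockout replicate 3. The ratio differences ranged from -0.28 to 0.53 (Acaca/Fasn), -0.48 to 0.45 (Acly/Fasn), -1.38 to 0.14 (Olah/Fasn), -0.51 to 0.29 (Thrsp/Fasn) and -0.48 to 0.053 (Slc25a1/Acly). That of Acss2/Acly ranged from -0.46 to -0.078 and kept its sign. On log2(FPKM + 1), Acaca/Fasn was -0.052 instead of 0.02. List medians relative to all genes ranged from 0.048 to 0.39 (citrate supply), 0.0046 to 0.90 (other acetyl-CoA enzymes) and -0.047 to 0.27 (mitochondrial synthesis). With the milk covariate, citrate supply was at -0.0054 and other acetyl-CoA enzymes at -0.053, and without both end libraries at -0.068 and -0.076. With at least 5 FPKM required, carboxylase partners were at -0.12 and mitochondrial synthesis at 0.34. Without a filter, citrate supply was at 0.12, carboxylase partners at -0.16, lipogenic regulators at -0.14 and mitochondrial synthesis at -0.0083. Library weights put lipogenic regulators at 0.049. Genes at an unadjusted p under 0.05 in limma numbered 25 (without wild-type replicate 1) to 1187 (without knockout replicate 2) with 1 library left out, 51 at 5 FPKM, 326 without a filter, 1142 with weights and 78 without both end libraries, against 130.

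No paired analysis was possible because the labels number each mouse once and give the genotypes no shared replicate numbers. Unknown depth limits what can be said of genes near 1 FPKM.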
